A study of Mus musculus with 12 samples.

Results

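The comparison described here is between 2 groups of ventral hippocampus samples from adult mice, 3 cKO samples (numbered 40, 63 and 64) and 3 control samples (41, 49 and 50), out of 12 samples in the study. The other 6 are dorsal hippocampus. The samples were chosen by their titles, and every gene with enough reads was tested, which left 15102 of 29146 genes in the ventral table. Both groups were homozygous for a floxed Tet3 allele (Tet3fl/fl), and the cKO mice also carried Camk2a-CreERT2, a Cre recombinase that acts only after tamoxifen and is driven by the promoter of Camk2a, a kinase gene of excitatory forebrain neurons. Per the labels, 50 mg/kg of tamoxifen was injected into the peritoneum from 6 weeks of age, 2 times a day for 5 days, and after a break of 7 days for 5 further days. The labels name no Cre-carrying group without the floxed allele, so Cre and the loss of Tet3 cannot be told apart. Glia, endothelium, choroid plexus and most interneurons lie outside the usual range of this promoter, and in a whole-tissue sample their transcripts are mixed with those of the neurons. The labels do not say that each sample is a separate mouse, and p-values measure the spread between these samples only.

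Tet3 belongs to the TET enzymes, which oxidise 5-methylcytosine in DNA to 5-hydroxymethylcytosine and further products on the way to unmethylated cytosine. It is the TET enzyme usually found at the highest level in neurons, and its level there responds to synaptic activity. The ventral hippocampus projects to the amygdala, hypothalamus and prefrontal cortex and is known for its part in anxiety and stress responses, whereas the dorsal hippocampus is known for spatial memory. The choroid plexus of the ventricles lies next to the hippocampus and makes cerebrospinal fluid.

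Libraries were made by sequencing of 3′ ends, so a read marks the tail end of a transcript with a poly(A) tail, and levels are given as counts per 1000000 counts of the sample, after TMM scaling (CPM) with no correction for length. Totals were 6.69 to 15.9 M counts per sample, the highest in control 41. Of the 6 samples, 2 stood apart from the others of their group. Among 11400 genes with a mean of at least 5 CPM, control 50 lay more than 2-fold below both other controls in 95 genes, against 12 genes for control 41 and 11 for control 49. Those 95 genes were picked for being low in control 50, so its low place among the other samples is partly built in. No ranking over all 12 samples was made for the genes low in control 41 or 49. Control 50 was the lowest of all 12 samples in 94 of the 95 genes, dorsal samples included. Its median log2 level over them was -1.44 relative to the other ventral controls, while the dorsal samples lay between 0.17 and 0.46 and the ventral cKO samples at 0.40 (40), 0.11 (63) and 0.34 (64). The second sample was cKO 63, which lay more than 2-fold above both other cKO samples in 53 genes, 21 of them members of a choroid plexus list. The same was true of 0 genes for cKO 40 and 4 for cKO 64. For the leading results, values without control 50 or cKO 63 are therefore given too. Many single genes below are given with all samples only, and some of these also moved. The log2 fold change of Nog was 0.60 with all samples and 0.33 without control 50, and that of Camk2a 0.31 and 0.18 without cKO 63. Both samples were singled out from these same data. Calls and p-values without them are therefore no independent support.

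**Figure D1:**
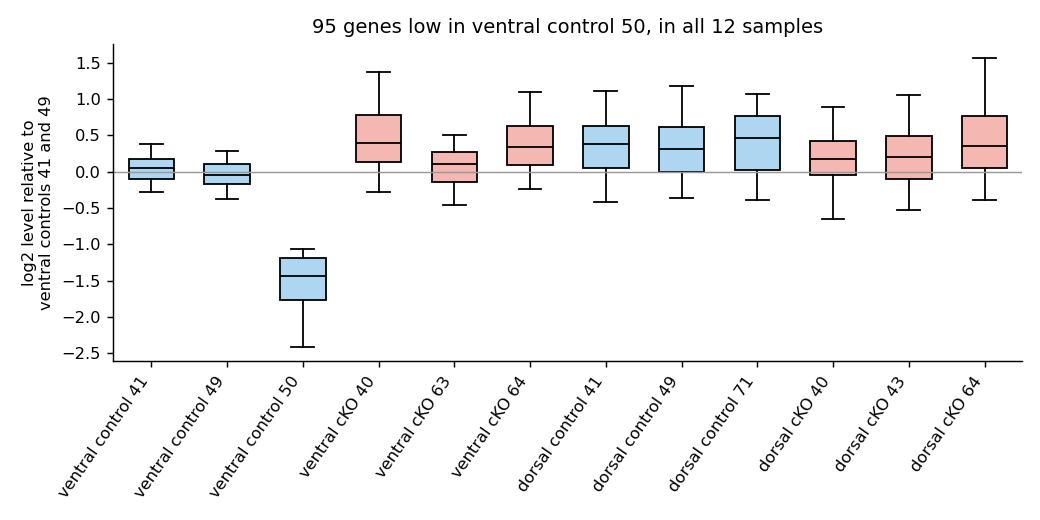
Log2 level of the 95 genes that were low in ventral control 50, relative to the mean of ventral controls 41 and 49, in each of the 12 samples (boxes: quartiles with the median; whiskers: percentiles 5 to 95). Control 50 has a median of -1.44, and the other 11 samples have medians from -0.05 to 0.46.

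No gene passed an adjusted p of 0.05 between the ventral groups in edgeR's quasi-likelihood test (0% of 15102 genes called; smallest Benjamini-Hochberg adjusted p 0.527). At an unadjusted p under 0.05 there were 1092 genes, or 7.23% of those tested, with 574 higher in cKO (3.8%) and 518 lower (3.43%). That share is the background against which each gene list below is read. The lists and their members were chosen with earlier results of these data known. A list's share against this background is therefore a description and no independent support. Every cKO sample lay above every control in 921 genes (6.1%) and below every control in 1008 (6.67%). When samples were scaled by their total counts alone, the split turned to 465 higher and 672 lower. DESeq2 called 9 genes, Cadm4, Klf6, Eif4a2 and Egr1 as higher and Pomc, Slc4a2, Cab39l, Itpripl1 and Epn3 as lower. Without cKO 63, edgeR called 55 genes, 53 of them lower. Differences were small for most of the genes with p under 0.05: 68 were more than 2-fold higher and 103 more than 2-fold lower. Among them 13 were more than 4-fold lower and 0 more than 4-fold higher. The median standard error (SE) of a log2 fold change was 0.16. Control 50 was the lowest control in 57.3% of the 574 higher genes, against 35.5% of all tested genes. cKO 63 was the highest of the cKO samples in 54.6% of the 518 lower genes, against 33.0% of all tested genes. Without control 50, 461 genes were higher and 452 lower at an unadjusted p under 0.05.

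No difference was detectable in the targeted gene itself. Tet3 (chr6:83362373-83459084, minus strand, GRCm38) was at 34.7, 30.5 and 23.4 CPM in controls 41, 49 and 50 and 35, 25.1 and 32.2 CPM in cKO 40, 63 and 64, a log2 fold change of 0.05 ± 0.17 (unadjusted p = 0.755), and the groups overlapped. Values in the text below keep this order of samples, and a value with ± is a log2 fold change (cKO minus control) with its SE. The direction for Tet3 turned to -0.09 without control 50. Where the floxed exons lie is not stated in the labels. A 3′ tag outside them would count a deleted transcript as well as an intact one, so these values do not check the deletion. Tet2 was at 48.3, 38.3 and 38.5 CPM in controls against 37.8, 36.4 and 37.7 in cKO. All 3 cKO values of Tet2 were below the controls, with a log2 fold change of -0.17 ± 0.12 (unadjusted p = 0.186). Tet1 was at 10.8, 9.93 and 8.7 CPM in controls against 10.8, 8.42 and 8.54 in cKO, with overlapping groups. In a list of 30 tested genes of DNA methylation and demethylation (writers, TET enzymes, methyl-binding proteins and repair factors), 1 was higher and 1 lower at an unadjusted p under 0.05, or 6.67% against the 7.23% of all genes. The higher one was Gadd45b, an activity-induced gene linked to demethylation of DNA, at 7.91, 9.37 and 7.21 CPM in controls against 13.3, 8.69 and 11.4 in cKO. The lower one was Mbd6, which codes for a protein with a methyl-binding domain, at 42.3, 47.4 and 42.8 CPM in controls against 39.5, 36.1 and 36.5 in cKO. The summary for this list was close to that of all genes.

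Every tested gene of the choroid plexus epithelium list was lower in cKO. List members were 20 of the 103 genes more than 2-fold lower at an unadjusted p under 0.05, and 3 of the 13 more than 4-fold lower. In bulk samples, fewer cells of a type and less RNA per cell cannot be told apart. Of the 30 list members, 29 were tested, and all 29 had a negative log2 fold change (median -1.55, against 0.00 over all tested genes). An unadjusted p under 0.05 was reached by 25 of them, or 86.2% against a background of 3.43% for lower genes, and 0 passed the adjusted threshold. Every cKO sample was below every control in 19 of the 29, against 6.67% of all genes. The 3 cKO samples differed in how low these genes were. As a median over the 29 genes, cKO 40 held 14.3% of the control mean, cKO 64 held 12.6% and cKO 63 held 73.4%. The controls themselves were spread from 81.2% (control 50) to 114% (control 41). Summed over the list, the controls held 3622 to 5027 CPM, cKO 63 held 2941 CPM, and cKO 40 and 64 held 339 and 291 CPM. No tested member was at 0 in any sample. cKO 63 was below every control in 20 of the 29 genes, cKO 64 in 27 and cKO 40 in all 29.

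Enpp2, which codes for the lysophospholipase autotaxin that choroid plexus secretes, had one of the highest levels in the list, at 999.6, 961 and 744 CPM in controls 41, 49 and 50 and 129, 560.3 and 114 CPM in cKO 40, 63 and 64. The groups did not overlap, and the log2 fold change was -1.75 ± 0.47 (adjusted p = 0.608). Without cKO 63 it was -2.89, with an adjusted p of 3.47e-06 in the same edgeR test. Otx2, a homeobox factor needed for choroid plexus development and upkeep, was at 26.4, 28 and 17.4 CPM in controls against 2.44, 15.5 and 0.899 in cKO. Lmx1a, a roof plate factor whose lineage gives rise to choroid plexus, was at 13, 14.4 and 10.7 CPM in controls against 1.11, 6.76 and 0.449 in cKO. Clic6, a chloride channel family member, was at 84.2, 74.1 and 50.0 CPM in controls against 3.66, 49.5 and 1.5 in cKO. In Otx2 and Clic6, cKO 63 lay just below the lowest control. In Enpp2 and Lmx1a it lay further below, and in all of these genes cKO 40 and 64 were far lower still. Prlr, the prolactin receptor, was at 66.4, 54 and 44.6 CPM in controls against 5.77, 38.2 and 7.79 in cKO, and Sostdc1, a secreted inhibitor of BMP and Wnt signals, was at 32, 27.7 and 21.3 CPM in controls against 3.33, 16 and 3.44 in cKO. Ttr, the thyroid hormone carrier that choroid plexus secretes in bulk and which was chosen after its values were seen, was at 2937, 3352 and 2334 CPM in controls against 59.3, 1864 and 40.7 in cKO. It did not reach an unadjusted p of 0.05 with all samples (0.0591), and its log2 fold change of -2.13 ± 1.02 became -5.84 without cKO 63 (adjusted p = 3.67e-07).

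Cab39l and Perp differed less and more evenly than the genes above. Cab39l, a scaffold of the kinase Stk11, was at 86.9, 74.1 and 75.3 CPM in controls against 37.6, 63.5 and 42.5 in cKO (-0.73 ± 0.17), and Perp, a desmosome protein of epithelia, was at 9.68, 8.39 and 9.69 CPM in controls against 5.54, 6.35 and 2.85 in cKO (-0.90 ± 0.25). Lbp, a lipopolysaccharide binding protein, was at 36.6, 31.5 and 19.6 CPM in controls against 7.43, 19.7 and 3.89 in cKO, with cKO 63 a little above control 50. Other strongly lower genes, in the list or outside it, also had cKO 63 as the highest cKO sample. Steap1, a metalloreductase, was at 36.5, 35.2 and 22.7 CPM in controls against 0.776, 18.6 and 1.05 in cKO. Wfdc2, a secreted protease inhibitor homologue, was at 13.8, 10.8 and 9.32 CPM in controls against 0.222, 7.04 and 0.449 in cKO, and the membrane protein gene Tmem72 was at 48, 43.1 and 35.9 CPM in controls against 1.22, 30.5 and 0.749 in cKO. Col8a1, a short-chain collagen, was at 14.9, 11.3 and 9.45 CPM in controls against 0.554, 7.59 and 0.599 in cKO, and 1500015O10Rik, which is known as a choroid plexus transcript under the name augurin or Ecrg4, was at 40.3, 36.5 and 28.5 CPM in controls against 1.89, 24.4 and 0.749 in cKO. Together these are, with Lmx1a, Clic6 and Otx2, the 8 largest decreases among non-overlapping genes at 5 CPM or more with an unadjusted p under 0.05.

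**Figure D2:**
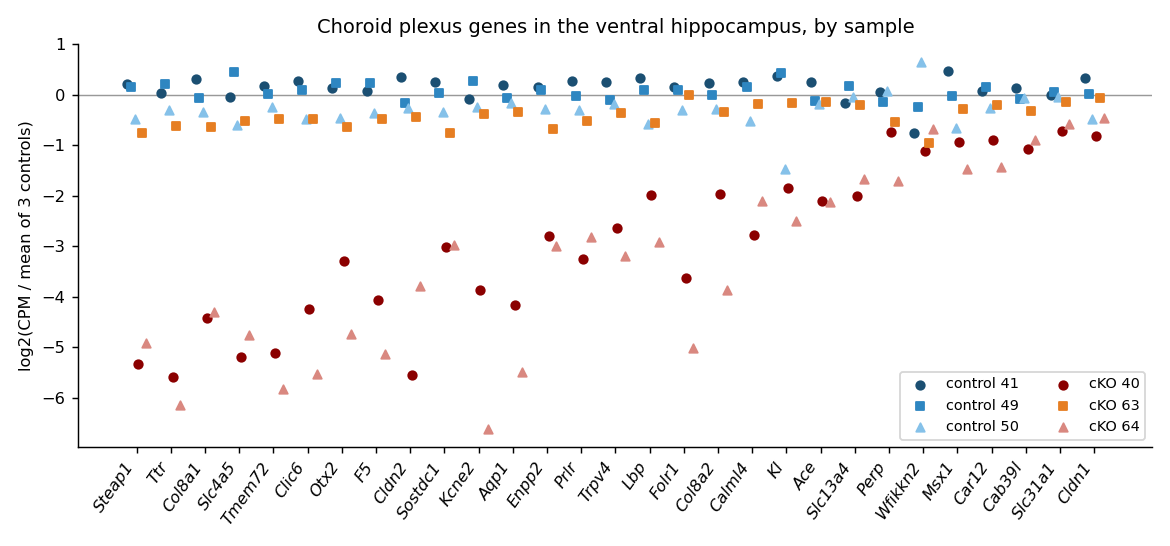
Level of each of the 29 tested choroid plexus genes by sample, as log2 of CPM over the mean of the 3 controls (points: single samples). In most genes cKO 63 lies nearer to the controls than cKO 40 and cKO 64, which lie far below them.

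Leaving out cKO 63 changed the list's median to -2.89, and 22 of the 29 members were then called at an adjusted p under 0.05. Of the 53 genes that set cKO 63 apart from the other cKO samples, 21 are members of this list. Calls made without that sample are therefore no independent support for a difference in the list. Leaving out cKO 40 gave -1.25 with 15 members at an unadjusted p under 0.05, and leaving out cKO 64 gave -1.15 with 17. With control 50 and cKO 63 both left out, which was chosen after the data were seen, 25 members were called of 76 genes called in all. The remainder of the lower genes carried the same order of samples to a lesser degree. Among the 83 genes more than 2-fold lower that are not in the list, cKO 63 was the highest cKO sample in 59. Whether the amount of choroid plexus tissue taken with each dissected sample plays a part in these genes was not tested.

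Other cells at the ventricle and brain surface gave smaller differences. The ependymal and motile cilia list (ependymal cells line the ventricles) had 16 of 18 tested members lower and 2 higher, with a median log2 fold change of -0.37, and 2 members at an unadjusted p under 0.05. The median was -0.17 without control 49, -0.23 without cKO 64 and -0.54 without control 50. Tekt1, a tubulin-binding protein of cilia, was at 9.93, 13.3 and 9.32 CPM in controls against 4.88, 9.52 and 4.49 in cKO, and Rsph1, a radial spoke protein, was at 18.3, 23.2 and 16.9 CPM in controls against 12.1, 18.6 and 9.74 in cKO. In both genes cKO 63 lay within the controls. The meningeal fibroblast and matrix list had 5 of 20 members lower at an unadjusted p under 0.05, or 25% against 3.43% of all genes. The cKO samples did not agree on this list. As a median over the 20 genes, cKO 40 held 67.9% of the control mean, cKO 64 57.2% and cKO 63 116%. In 10 of the 20 genes cKO 63 was above every control, and in 4 it was below every control. Dcn, the matrix proteoglycan decorin, was at 174, 159 and 145 CPM in controls against 98.4, 105 and 138 in cKO, and Bgn, the related biglycan, was at 22.1, 23.9 and 22.9 CPM in controls against 18.7, 20.3 and 17.1 in cKO. Neither had overlapping groups, and the log2 fold change was -0.49 ± 0.13 for Dcn and -0.29 ± 0.13 for Bgn. Igfbp2, a binding protein of insulin-like growth factors, was at 111, 94.7 and 77.3 CPM in controls against 32.9, 79.5 and 21.3 in cKO, with cKO 63 above control 50. Without cKO 63 the meningeal list had 9 members lower at an unadjusted p under 0.05, and 1 called, Igfbp2. Without cKO 64 its median was -0.03, against -0.23 with all samples.

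Lists for the cells of the hippocampus itself had small medians. The median log2 fold change was -0.03 over 18 endothelial genes, 0.02 over 15 astrocyte genes, 0.14 over 13 microglial genes and 0.09 over 19 oligodendrocyte genes. It was 0.03 over 12 genes of excitatory neurons and 0.04 over 20 of interneurons. Each of these lists had 0 to 2 members at an unadjusted p under 0.05. Camk2a, whose promoter drives the Cre, was at 1328, 1513 and 1227 CPM in controls against 1764, 1960 and 1320 in cKO, and the groups overlapped. Nos1, the neuronal nitric oxide synthase of a subset of interneurons, was lower at 77.3, 66.4 and 69.6 CPM in controls against 48.4, 59 and 51.5 in cKO (-0.43 ± 0.11). The interneuron peptide gene Sst was at 124, 121 and 97.8 CPM in controls against 121, 140.3 and 149 in cKO, with overlapping groups. In the dentate granule cell list 11 of 16 genes were higher (median 0.18), 2 of them at an unadjusted p under 0.05. The median was -0.00076 without cKO 63 and 0.06 without control 41, and 9 of the 16 genes in cKO 64 were below all controls. Tdo2, a tryptophan-degrading enzyme used as a granule cell marker, was at 1.39, 1.82 and 1.62 CPM in controls against 4.1, 4.28 and 2.85 in cKO (1.25 ± 0.30), and Rfx3, a ciliogenic transcription factor, was at 35.9, 41 and 34.1 CPM in controls against 78.4, 44.6 and 43.6 in cKO. For Rfx3, cKO 40 was by far the highest sample. Haemoglobin transcripts, a sign of blood, were at 9.17 to 46 CPM in the controls and 14.9 to 20.7 CPM in the cKO samples. Mitochondrially encoded genes took 3.63 to 4.36% of counts in the controls and 3.34 to 4.48% in the cKO samples.

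Markers of the hippocampal poles were checked since the position of a dissection along the long axis would move them. Of 20 tested ventral pole genes, 4 were lower and 1 higher at an unadjusted p under 0.05 (25% in all), and the median was -0.06. The lower ones were Dcn, given above, Dlk1, a Notch ligand homologue, Gpr101, an orphan receptor, and Ttn, which codes for titin. Dlk1 was at 28.7, 29.2 and 30.8 CPM in controls against 17, 21.7 and 25.9 in cKO and Gpr101 at 9.3, 8.67 and 10.4 CPM in controls against 6.43, 8.28 and 5.54 in cKO, with every cKO sample below every control. Ttn was at 5.25, 4.2 and 4.23 CPM in controls against 3.11, 3.31 and 2.7 in cKO, in the same order. Cyp26b1, a retinoic acid-degrading enzyme, went the other way, at 23.2, 17.9 and 20.3 CPM in controls against 24.4, 26.1 and 27.6 in cKO. Nr2f1, a transcription factor of the ventral pole with a far higher level, was at 476, 379.7 and 426 CPM in controls against 453, 527 and 443 in cKO, with overlapping groups. Of 12 dorsal pole genes, Tdo2 was the one at an unadjusted p under 0.05, and the list's median was 0.08. In all, 14 ventral pole genes were lower and 6 higher, and 8 dorsal pole genes were higher and 4 lower. The ventral genes held a median of 85.7%, 93.6% and 95.6% of the control mean in cKO 40, 63 and 64. The dorsal genes held 124%, 98.0% and 94.8%. Control medians were 93.2 to 106% and 89.8 to 110%. In cKO 40, 9 ventral pole genes lay below every control and 3 above. For the dorsal pole genes 1 lay below and 9 above. The part of dissection position in the other results was not tested.

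The lowest p of all tested genes was that of Cadm4, a cell adhesion molecule of the nectin-like family that links axons with glia and other neurons. Cadm4 (ENSMUSG00000054793, chr7:24482023-24504539, plus strand, GRCm38) was at 41.8, 42.4 and 35.1 CPM in controls 41, 49 and 50 and 64.9, 61.4 and 66.9 CPM in cKO 40, 63 and 64. The lowest cKO sample exceeded the highest control, and the log2 fold change was 0.69 ± 0.11 (unadjusted p = 3.49e-05, adjusted p = 0.527). DESeq2 gave 0.70 with an adjusted p of 0.00181, and without cKO 63 edgeR gave an adjusted p of 0.0354. Its value without control 50, 0.62, was the smallest of the fits that left out 1 sample. Of 30 tested adhesion genes (Cadm and leucine-rich repeat proteins among them), 18 were higher and 12 lower with a median of 0.03. The others at an unadjusted p under 0.05 were Flrt3 and Lrrtm4, both leucine-rich repeat proteins of synapses. Flrt3 was at 58.2, 63.6 and 54.6 CPM in controls against 71.9, 72.8 and 68.7 in cKO, and Lrrtm4 was at 35.8, 32 and 35.2 CPM in controls against 40.1, 41.1 and 40.4 in cKO.

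Klf6, a zinc finger transcription factor induced by injury and activity (chr13:5861482-5870394, plus strand), was at 87.4, 82 and 92.5 CPM in controls 41, 49 and 50 and 114, 135 and 118 CPM in cKO 40, 63 and 64, with a log2 fold change of 0.49 ± 0.10 (adjusted p = 0.608). Mkx, a homeobox factor known from tendon, was at 6.83, 5.59 and 5.47 CPM in controls against 11.1, 14.1 and 10.9 in cKO (0.99 ± 0.19). Hipk4, a kinase, was at 19.2, 22 and 20.9 CPM in controls against 32.5, 36.3 and 26.4 in cKO, and Rgs20, a regulator of G protein signals, was at 36, 39.9 and 37.4 CPM in controls against 54, 68.3 and 49.1 in cKO. Kbtbd2, a subunit of a ubiquitin ligase, was at 128, 159 and 122 CPM in controls against 187, 187 and 186 in cKO, where the 3 cKO values agreed closely and the controls were spread. In each of these genes every cKO sample was above every control. The predicted gene Gm7172 was at 25.3, 29 and 26.3 CPM in controls against 43.9, 37.1 and 38.2 in cKO, and whether it shares reads with a similar gene was not tested.

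Of the 12 genes with the lowest p, 4 were lower. Ezr, the membrane-to-actin linker ezrin, was at 55.5, 52 and 52 CPM in controls against 36.7, 40.4 and 29.2 in cKO (-0.58 ± 0.12). Slc4a2, an anion exchanger, was at 47.8, 48.8 and 40.1 CPM in controls against 17.3, 34.8 and 19.5 in cKO (-0.94 ± 0.22), Epn3, an epsin of clathrin coats, was at 8.86, 10.1 and 8.45 CPM in controls against 1.66, 5.24 and 3.44 in cKO and Itpripl1, a membrane protein, was at 12.1, 8.81 and 10.9 CPM in controls against 2.66, 6.62 and 3.59 in cKO. In all 4 cKO 63 lay nearest the controls, as in the choroid plexus genes, and the log2 fold changes of Ezr, Slc4a2, Epn3 and Itpripl1 without it were -0.69, -1.32, -1.88 and -1.80. The part of choroid plexus tissue in these 4 genes was not tested.

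Genes induced by neuronal activity were another group whose share of low p-values lay above background. Transcription of these genes starts within minutes of calcium entry, and their products either regulate further genes (Fos, Egr1, Nr4a1) or act on synapses and signalling (Arc, Bdnf, Dusp6). To show the DNA next to which these transcripts start, the RefSeq promoter of Cadm4 and those of 4 activity-induced genes higher at an unadjusted p under 0.05 are printed from 250 bases before to 50 bases after the transcript start (GRCm38.p6, plus strand in all 5). Capitals mark matches on either strand to TGACG, the core of the cyclic AMP response element bound by CREB (written CGTCA on the other strand), and to the CArG box of serum response factor, of which these 5 windows hold none. Cadm4 is chr7:24481773-24482072, Klf6 chr13:5861239-5861538, Nr4a1 chr15:101266596-101266895, Dusp6 chr10:99262981-99263280 and Fos chr12:85473640-85473939.
Cadm4: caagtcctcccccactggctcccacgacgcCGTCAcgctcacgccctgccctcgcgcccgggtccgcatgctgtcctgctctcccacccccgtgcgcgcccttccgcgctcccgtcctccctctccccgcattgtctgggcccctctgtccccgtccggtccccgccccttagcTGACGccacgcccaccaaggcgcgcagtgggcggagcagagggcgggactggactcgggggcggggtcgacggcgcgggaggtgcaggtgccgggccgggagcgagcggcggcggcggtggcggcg
Klf6: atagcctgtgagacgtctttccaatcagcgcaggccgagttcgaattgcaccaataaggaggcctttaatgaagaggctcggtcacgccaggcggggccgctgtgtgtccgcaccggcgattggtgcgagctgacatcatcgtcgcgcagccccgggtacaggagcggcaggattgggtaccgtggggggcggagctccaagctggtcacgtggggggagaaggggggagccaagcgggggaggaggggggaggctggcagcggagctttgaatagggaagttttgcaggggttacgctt
Nr4a1: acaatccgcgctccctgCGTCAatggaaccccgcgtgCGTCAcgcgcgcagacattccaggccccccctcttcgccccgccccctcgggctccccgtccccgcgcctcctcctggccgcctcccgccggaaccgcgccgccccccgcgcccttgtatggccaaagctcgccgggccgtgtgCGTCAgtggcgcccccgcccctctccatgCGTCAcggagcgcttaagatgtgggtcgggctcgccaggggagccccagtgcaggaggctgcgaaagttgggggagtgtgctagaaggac
Dusp6: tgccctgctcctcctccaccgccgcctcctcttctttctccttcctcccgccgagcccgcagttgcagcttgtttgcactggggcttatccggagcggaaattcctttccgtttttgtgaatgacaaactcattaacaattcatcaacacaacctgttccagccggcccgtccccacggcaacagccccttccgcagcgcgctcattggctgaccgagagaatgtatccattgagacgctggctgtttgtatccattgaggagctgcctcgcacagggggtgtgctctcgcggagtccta
Fos: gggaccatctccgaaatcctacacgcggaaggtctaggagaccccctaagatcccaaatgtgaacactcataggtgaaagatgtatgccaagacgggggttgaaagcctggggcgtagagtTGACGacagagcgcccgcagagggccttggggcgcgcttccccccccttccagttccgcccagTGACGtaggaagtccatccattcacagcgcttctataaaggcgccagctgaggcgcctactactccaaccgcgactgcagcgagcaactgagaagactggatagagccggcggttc
The Cadm4 window holds 40 CpG dinucleotides, the target of DNA methylation and of TET enzymes. That is more than 96.2% of all 27025 promoters, whose median was 7, with promoters of untested genes among them. Nr4a1 has 35, Klf6 23, Fos 20 and Dusp6 19, against a median of 21 over the 10461 tested genes with an entry. The TGACG core occurred in 21% of all 27025 promoters of this length, in 26 of 44 promoters of the activity-induced lists and in 4 of the 10 of those that were higher at an unadjusted p under 0.05. The core holds a CpG, and all promoters had a lower median CpG count (7) than those of the tested genes (21). The 21% is therefore not a like background for these lists. These matches describe the letters in the windows, and no binding or methylation was measured here. Over all tested genes, the promoters of the 371 higher genes with an entry had a median of 22 CpG and those of the 376 lower genes 18, with quartiles of 14 to 30 and 9 to 25.

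Of 24 tested activity-induced transcription factors, 18 had a positive log2 fold change and 6 a negative one (median 0.16). Of these, 6 were higher and 0 lower at an unadjusted p under 0.05, or 25% against 3.8% of all genes, and 0 passed the adjusted threshold. Egr1, a zinc finger factor used as a marker of activated neurons, was at 279.7, 424 and 329 CPM in controls 41, 49 and 50 and 492, 537 and 590.0 CPM in cKO 40, 63 and 64. Every cKO sample was above every control, and the log2 fold change was 0.65 ± 0.14 (unadjusted p = 0.000476, adjusted p = 0.608, and 0.0125 by DESeq2). Egr3, a related factor, was at 49.9, 52.3 and 46.7 CPM in controls against 55, 59.3 and 61.6 in cKO (0.24 ± 0.10), and Egr2, low in all samples, was at 1.01, 3.78 and 0.373 CPM in controls against 4.21, 4 and 4.94 in cKO. Fos was at 7.47, 18.7 and 3.11 CPM in controls 41, 49 and 50 and 21.4, 15.3 and 33.2 CPM in cKO 40, 63 and 64 (1.30 ± 0.45), and Nr4a1, a nuclear receptor, was at 43.2, 59.7 and 25.2 CPM in controls against 75.5, 54.5 and 89.4 in cKO (0.78 ± 0.25). The groups overlapped in both, with control 49 above cKO 63. Junb, a partner of Fos, was at 52.4, 67.6 and 39.3 CPM in controls against 63.8, 61 and 81 in cKO and Npas4, a neuron-specific activity factor, at 7.21, 18.6 and 7.71 CPM in controls against 14.3, 19.7 and 15.7 in cKO, and neither reached an unadjusted p of 0.05. Control 49 was thus the highest control in Fos, Nr4a1, Junb, Npas4, Egr1 and Egr2, and control 41 or 50 the lowest.

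Among 34 tested effectors and feedback inhibitors, 25 had a positive log2 fold change and 9 a negative one (median 0.17), with 9 higher and 0 lower at an unadjusted p under 0.05 (26.5%). Bdnf, a neurotrophin that strengthens synapses, was at 57.6, 53.6 and 48.8 CPM in controls 41, 49 and 50 and 80.6, 60.0 and 63.2 CPM in cKO 40, 63 and 64 (0.35 ± 0.13). Dusp6, a phosphatase that switches off ERK, was at 193, 183 and 152 CPM in controls against 217, 224 and 209 in cKO (0.30 ± 0.10), and Scg2, a secretory granule protein, was at 295, 286 and 172 CPM in controls against 426, 374 and 359 in cKO (0.62 ± 0.17). The groups did not overlap in these 3 genes, though in Scg2 the value of control 50 stood well below the other controls. Arc, which drives the removal of AMPA receptors from synapses, was at 32.4, 55.4 and 30.8 CPM in controls against 57, 49.7 and 86 in cKO (0.71 ± 0.23), and Dusp1, a phosphatase that acts on MAP kinases, was at 28.7, 43.5 and 28.3 CPM in controls against 39.8, 38.6 and 68.1 in cKO. In both, control 49 was among the cKO values. Trib1, a pseudokinase, was at 33.8, 41.4 and 35.9 CPM in controls against 41.1, 44.4 and 52.4 in cKO and Cyr61, a matrix signalling protein, at 15.2, 17.3 and 2.61 CPM in controls against 29.5, 19.6 and 35 in cKO.

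**Figure D3:**
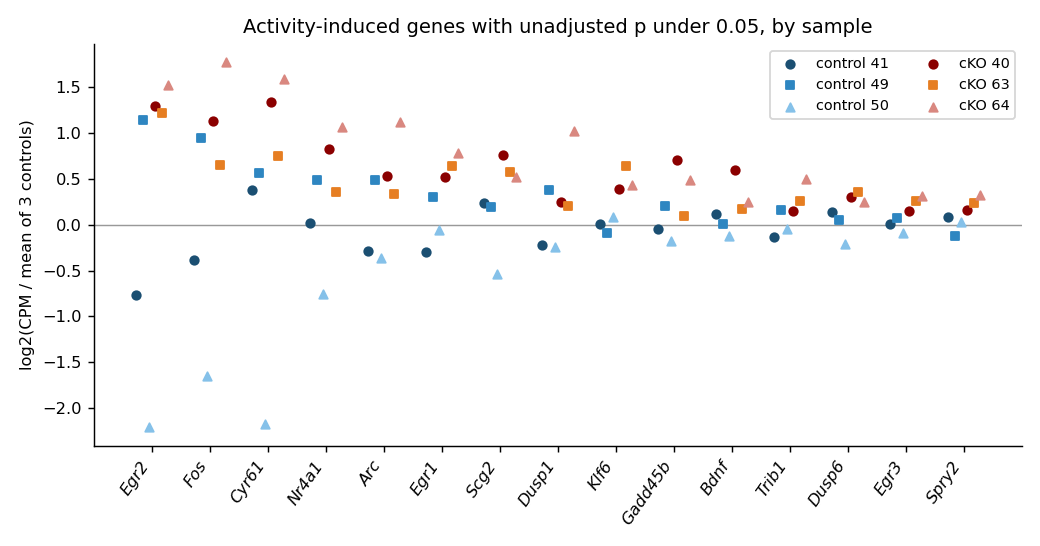
Level of the 15 activity-induced genes with an unadjusted p under 0.05 by sample, as log2 of CPM over the mean of the 3 controls (points: single samples). In Cyr61, Fos and Egr2 the spread among the controls is wide, with control 50 the lowest, while in Egr1, Klf6, Dusp6 and Bdnf every cKO sample is above every control.

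How far these lists rest on single samples was checked. Scores are the mean log2 CPM over the members relative to the ventral control mean. For the factors they were -0.079, 0.301 and -0.222 in controls and 0.296, 0.278 and 0.442 in cKO. For the effectors they were 0.077, 0.213 and -0.289 in controls and 0.328, 0.086 and 0.303 in cKO. The groups overlapped in both lists, and exact permutation tests of the scores gave p = 0.3 and p = 0.2. Without control 50 the transcription factors had 5 members and the effectors 5 at an unadjusted p under 0.05, all higher. Without control 49 the counts were 11 higher and 1 lower for the factors and 9 higher for the effectors, and without cKO 64 they were 4 and 5 higher. The median of the effectors was 0.09 without control 50 and 0.09 without cKO 40. Without control 50, Egr1 was 0.62, Klf6 0.53, Fos 0.91, Nr4a1 0.52, Scg2 0.41 and Cyr61 0.80. How long after handling the mice were dissected is not stated in the labels, and its part in these early-response genes was not tested.

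The largest increases among non-overlapping genes at 5 CPM or more with an unadjusted p under 0.05 were in genes of varied function, and in 7 of the 8 control 50 lay far below the other controls. Senp3, a SUMO protease, was at 13.4, 11.3 and 2.73 CPM in controls 41, 49 and 50 and 42.8, 16.7 and 29.1 CPM in cKO 40, 63 and 64. Rasd1, a small G protein induced by glucocorticoids, was at 10.9, 9.93 and 1.12 CPM in controls against 33.5, 12.6 and 17.8 in cKO. Nkx2-2, a factor of the oligodendrocyte lineage, was at 3.67, 4.9 and 1.74 CPM in controls against 11.3, 6.35 and 7.64 in cKO, and Mcam, an adhesion molecule of vessels, was at 24.4, 17.1 and 6.21 CPM in controls against 53.7, 29.9 and 33.5 in cKO. Klhl29, a BTB domain protein, was at 18.7, 14.5 and 4.85 CPM in controls against 37.7, 22.2 and 28.5 in cKO, and Cebpb, a factor of inflammation and memory, was at 9.55, 9.09 and 2.86 CPM in controls against 22.3, 12.3 and 14.7 in cKO. Cyr61, given above, was the seventh. In all 7, control 50 was more than 2-fold below both other controls, and cKO 40 or cKO 64 was the highest sample. Without control 50 the log2 fold changes went from 1.65 to 1.25 for Senp3, from 1.5 to 1.04 for Rasd1 and from 1.26 to 0.90 for Mcam. For Nkx2-2 the value went from 1.31 to 1.03, for Klhl29 from 1.18 to 0.81 and for Cebpb from 1.17 to 0.82. The eighth, the predicted gene Gm44186, was at 5.82, 4.76 and 4.85 CPM in controls against 11.9, 6.35 and 18.1 in cKO, and its controls were even. Whether it shares reads with a similar gene was not tested.

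Shares at an unadjusted p under 0.05 were 6.67% in the glutamate receptor list and 0% in the GABA receptor and inhibitory synapse list. They were 10.7% in the postsynaptic list and 6.25% in the presynaptic list, against 7.23% of all genes. In 30 tested glutamate receptor genes 1 was higher and 1 lower at an unadjusted p under 0.05. Grin3a, an NMDA receptor subunit that lowers calcium flow, was at 42.5, 41.5 and 44.2 CPM in controls against 34.8, 33.2 and 38.9 in cKO (-0.26 ± 0.11), and Cacng2, an auxiliary subunit of AMPA receptors known as stargazin, was at 153, 116 and 106 CPM in controls against 149, 195 and 166 in cKO (0.44 ± 0.14). Of 20 GABA receptor and inhibitory synapse genes 0 reached that level. In 28 postsynaptic scaffold and kinase genes 3 were higher, Shank2, Shank3 and Camk2a. Shank2, a scaffold of excitatory synapses, was at 74.4, 81.4 and 47.7 CPM in controls against 101, 107 and 89 in cKO (0.54 ± 0.16), and 0.35 without control 50. Shank3 was at 2.85, 3.64 and 1.62 CPM in controls against 6.54, 3.45 and 5.09 in cKO, with overlapping groups. Among 32 presynaptic genes 2 were higher, Vamp2, the vesicle SNARE, at 656, 742 and 572 CPM in controls against 720.2, 954 and 835 in cKO, and Syp, a vesicle membrane protein, at 75, 109 and 78.6 CPM in controls against 99.6, 135 and 112 in cKO. Groups overlapped in both, with control 49 above cKO 40.

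In the peptide and peptide receptor list every cKO sample was above every control in 1 of 30 tested genes and below in 1. The counts were 1 and 1 of 18 for monoamine receptors and 0 and 1 of 22 for glucocorticoid genes. Over all tested genes the shares were 6.1% above and 6.67% below. Oxtr, the oxytocin receptor, was at 10.2, 7.41 and 9.82 CPM in controls 41, 49 and 50 and 5.66, 5.66 and 5.24 CPM in cKO 40, 63 and 64, a log2 fold change of -0.74 ± 0.20 (unadjusted p = 0.0031, adjusted p = 0.608). Crhr2, a receptor of urocortins in the stress system, was at 9.55, 6.57 and 5.72 CPM in controls against 2.11, 4 and 4.04 in cKO (-1.16 ± 0.30). The other receptor of this system, Crhr1, was at 5.31, 4.34 and 7.83 CPM in controls against 6.76, 9.24 and 8.54 in cKO, with overlapping groups. Adcyap1, which codes for the peptide PACAP, was at 2.21, 2.8 and 2.61 CPM in controls against 3.77, 3.86 and 3.74 in cKO (0.60 ± 0.26). Htr4, a serotonin receptor, was at 2.85, 3.5 and 1.62 CPM in controls against 5.88, 4.41 and 3.89 in cKO (0.84 ± 0.31), and Adrb1, an adrenergic receptor, was at 46.1, 46.2 and 38.2 CPM in controls against 45, 62.4 and 58 in cKO. The groups overlapped in Adrb1. Of 30 tested peptide and peptide receptor genes, 2 were higher and 1 lower at an unadjusted p under 0.05, of 18 monoamine receptor genes 2 were higher and 0 lower, and of 22 glucocorticoid receptor and target genes 0 were higher and 1, Crhr2, was lower. As shares of each list these were 10%, 11.1% and 4.55%, against 7.23% of all genes. Regardless of p, 13 of the 18 monoamine receptor genes had a negative log2 fold change and 5 a positive one, with a median of -0.18 (-0.07 without control 41).

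In the Wnt and BMP list 4 of 30 tested genes were higher and 3 lower at an unadjusted p under 0.05 (23.3%). The higher ones were Wnt7a, a Wnt ligand, Fzd2, a Wnt receptor, and the secreted inhibitors Wif1 (of Wnt) and Nog (of BMP). Fzd2 was at 7.09, 7.41 and 5.97 CPM in controls against 9.76, 11 and 8.84 in cKO (0.53 ± 0.18) and Wif1 at 1.2, 1.26 and 1.24 CPM in controls against 2.22, 2.35 and 2.85 in cKO. Nog was at 9.93, 7.69 and 4.1 CPM in controls against 12, 10.5 and 11.2 in cKO, and Wnt7a was at 15.6, 13.6 and 14.3 CPM in controls against 14.9, 23.5 and 19.9 in cKO, with overlapping groups in Wnt7a. The lower ones were Sfrp5, a secreted Wnt inhibitor, Bmp6, a BMP ligand, and Smad6, an intracellular inhibitor of BMP signals. Sfrp5 was at 4.81, 3.36 and 3.48 CPM in controls against 0.111, 2.35 and 0.3 in cKO, Bmp6 at 3.35, 5.59 and 2.36 CPM in controls against 1.33, 1.93 and 0.749 in cKO and Smad6 at 2.34, 1.96 and 2.86 CPM in controls against 0.665, 0.966 and 1.95 in cKO. Sfrp5 and Bmp6 had the sample order of the choroid plexus genes, with cKO 63 nearest the controls, and Sfrp5 was called without that sample (-4.28, adjusted p = 0.00448). Without cKO 63 the list had 1 higher and 4 lower.

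Interferon and antigen presentation genes had the highest median of the 38 lists, 0.25 over 26 tested genes, with 18 higher and 8 lower. The median was 0.08 without control 41 and 0.16 without control 50, and with a single sequencing run it was -0.0098, -0.0089 and 0.07 in runs 1, 2 and 3. The share at an unadjusted p under 0.05 was 7.69%, close to the background. Rtp4, an interferon-induced chaperone, was at 2.15, 1.54 and 2.86 CPM in controls against 4.33, 3.31 and 3 in cKO, and Ifit1, which binds foreign RNA, was at 1.77, 1.82 and 1.12 CPM in controls against 2.55, 2.9 and 1.95 in cKO. Lgals3bp, a secreted galectin ligand, was lower, at 5.31, 6.43 and 6.96 CPM in controls against 3.44, 4.41 and 2.1 in cKO. These are low levels, at which a single count is worth 0.0633 to 0.15 CPM. Heat shock genes had 2 of 22 higher, among them the mitochondrial chaperonin Hspe1 at 172, 228 and 225 CPM in controls against 269, 284 and 241 in cKO. The circadian list had 1 of 17, Hlf, a clock output factor, at 206, 176 and 209 CPM in controls against 212, 248 and 263 in cKO. The share for 79 ribosomal protein genes was 6.33% (4 higher, 1 lower), and of 24 mitochondrially encoded genes 0 reached an unadjusted p of 0.05.

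**Figure D4:**
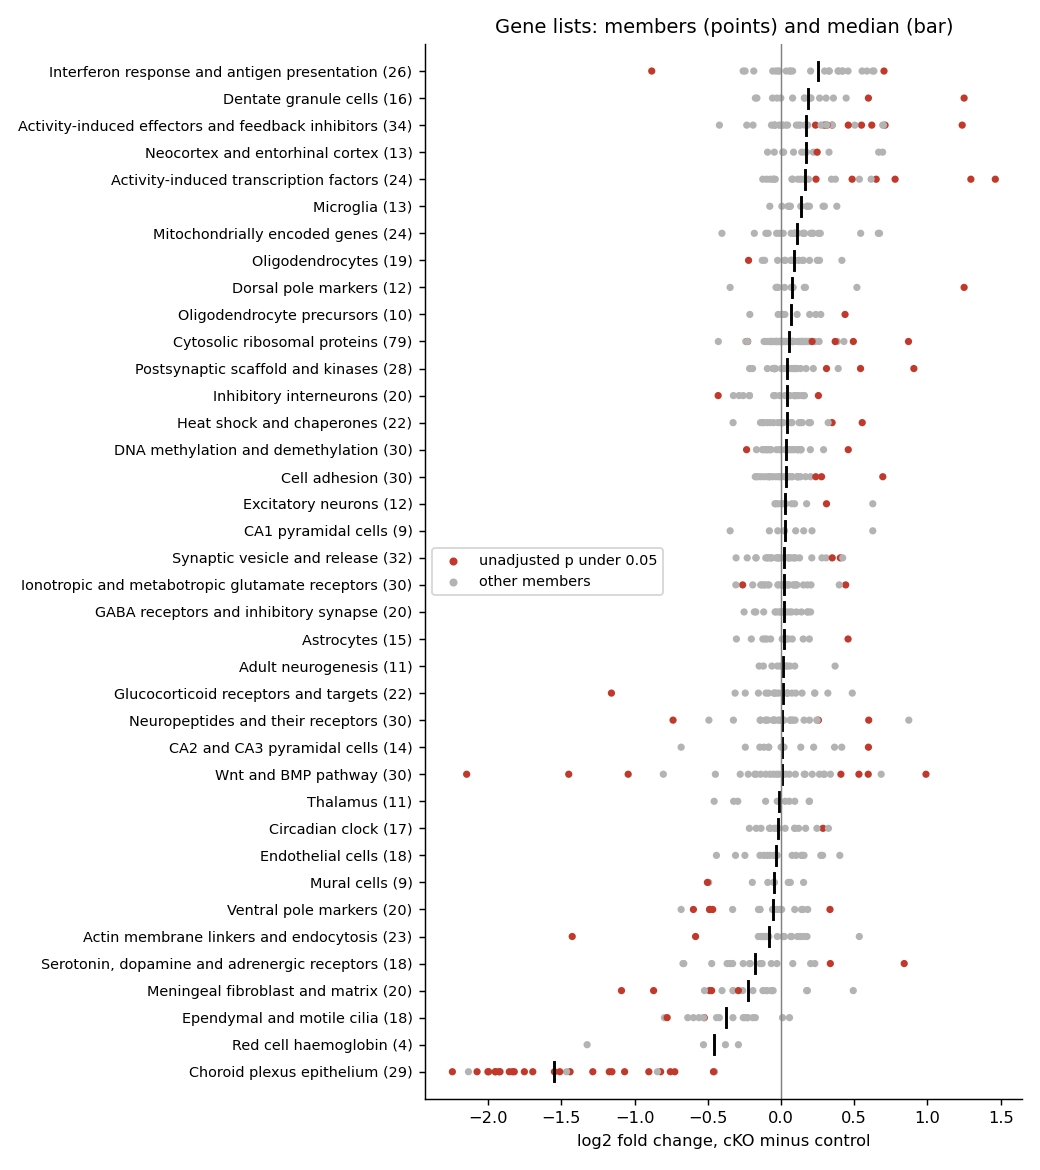
Log2 fold change (cKO minus control) of each tested member of 38 gene lists, with the number of members in brackets (points: genes; red: unadjusted p under 0.05; bar: list median). The choroid plexus list lies apart at a median of -1.55, and the medians of the other lists run from -0.45 to 0.25.

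Whether the ventral differences were particular to the ventral hippocampus was tested as an interaction, the ventral difference minus the dorsal difference, in 1 fit of all 12 samples with 16414 genes. No gene passed (0% called; smallest adjusted p 0.125), and 1307 genes, 7.96%, had an unadjusted p under 0.05. Cadm4 had the lowest p (7.64e-06), with an interaction of 0.91 ± 0.14. In the dorsal hippocampus Cadm4 was at 74, 65.9 and 71.7 CPM in dorsal controls 41, 49 and 71 and 56.5, 58.2 and 69.1 CPM in dorsal cKO 40, 43 and 64, a log2 fold change of -0.21 ± 0.10. The ventral cKO values, 61.4 to 66.9 CPM on the ventral scale, were thus near the dorsal levels, and the ventral controls were lower than every other sample. Mkx had an interaction of 1.31 ± 0.26 and was at 14.7, 11.5 and 15.6 CPM in dorsal controls 41, 49 and 71 and 11.6, 9 and 13.4 CPM in dorsal cKO 40, 43 and 64. It shared the pattern of Cadm4, with the ventral controls the lowest group. Pid1, a regulator of insulin signalling, had an interaction of 1.19 ± 0.24, with 56.2, 66.6 and 63.4 CPM in controls against 84.7, 102 and 72.5 in cKO in the ventral samples and a dorsal log2 fold change of -0.71 ± 0.17. Mt3, a metallothionein that binds zinc in neurons and astrocytes, had an interaction of 1.03 ± 0.21, with 115, 148 and 95.6 CPM in controls against 204, 177 and 143 in cKO in the ventral samples and a dorsal log2 fold change of -0.47 ± 0.15. The predicted genes Gm2830 (0.79 ± 0.15) and Gm10800 (2.58 ± 0.52) completed the 6 lowest p-values, and whether they share reads with similar genes was not tested. All 6 had an adjusted p between 0.125 and 0.325. DESeq2 called 34 genes in this comparison, all with the ventral difference more positive than the dorsal one. Among those named here they were Mt3, Scg2, Vamp2, Dusp6, Syp and Eif4a2.

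The lists differed in how many members had a low p in the interaction, where 7.96% of all tested genes had an unadjusted p under 0.05. The choroid plexus list had 0 of 29 members at an unadjusted p under 0.05, and its level varied widely between dorsal samples as well. Its score (mean log2 CPM over the members) ran from -1.23 to 1.98 over the dorsal controls and from -0.79 to 1.51 over the dorsal cKO samples, relative to the dorsal control mean. The ventral scores of the cKO samples were -2.66, -0.38 and -2.97, and an exact permutation test of the ventral scores gave p = 0.1, the lowest that 3 samples against 3 allow. Scores of the ventral groups did not overlap in 4 of the 38 lists, with the same p. By chance, 3 samples against 3 do not overlap in 10% of cases, so this count is near what chance gives. The others were excitatory neurons and postsynaptic scaffold and kinases, both higher in cKO, and actin membrane linkers and endocytosis, lower in cKO, with differences of 0.10, 0.09 and -0.08 in that order. Of the activity-induced transcription factors 3 of 24, and of the effectors 4 of 34, had an unadjusted interaction p under 0.05. Egr1 in the dorsal hippocampus was at 585, 730.4 and 899 CPM in dorsal controls 41, 49 and 71 and 965, 650.5 and 828 CPM in dorsal cKO 40, 43 and 64, and Klf6 at 107, 104 and 112 CPM in dorsal controls 41, 49 and 71 and 118, 119 and 108 CPM in dorsal cKO 40, 43 and 64. The interactions were 0.51 ± 0.23 for Egr1 and 0.39 ± 0.12 for Klf6, with unadjusted p-values of 0.0435 and 0.00631. Of the mitochondrially encoded genes 11 of 24 had an unadjusted interaction p under 0.05, with a median of 0.37. Their median log2 fold change was 0.11 in the ventral and -0.28 in the dorsal samples. The ventral value turned to -0.027 without cKO 40, and 9 of the 24 genes in cKO 64 were below all controls.

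**Figure D5:**
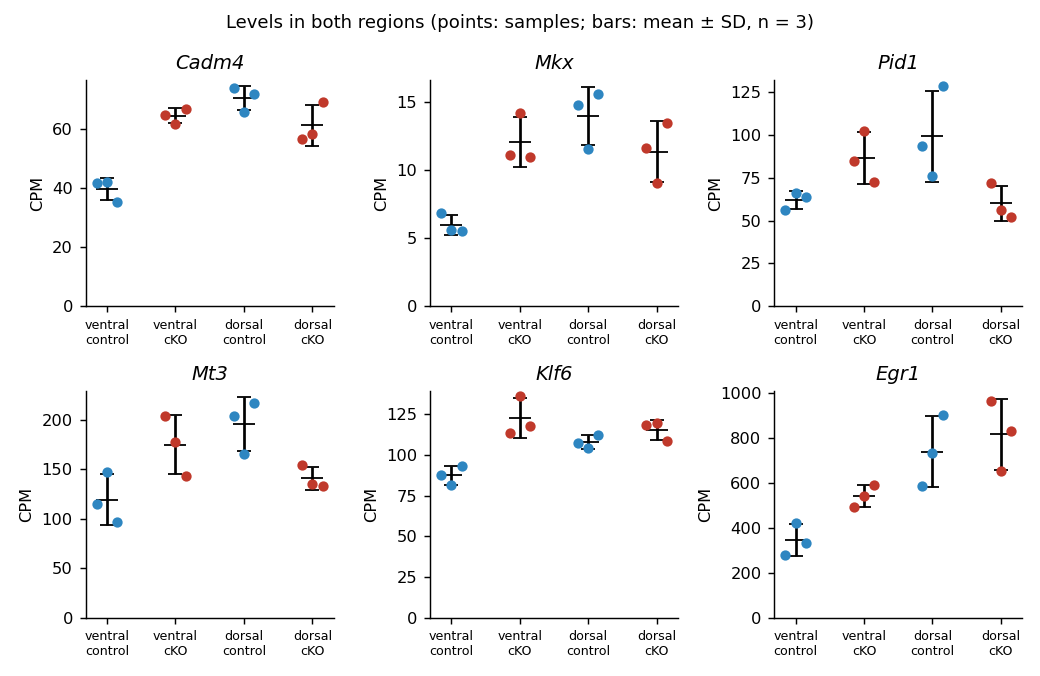
CPM of Cadm4, Mkx, Pid1, Mt3, Klf6 and Egr1 in ventral and dorsal controls and cKO samples (points: samples; bars: mean ± SD, n = 3). For Cadm4 and Mkx the 3 ventral controls are the lowest of all 12 samples.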

How the data were processed

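The authors deposited 1 table per region with whole-number counts per gene and sequencing run. The submitters' processing notes list cutadapt, HISAT2, featureCounts, edgeR and the build GRCm38. Versions, annotation and strand setting are not given in the sources used here. Overlapping and antisense genes can therefore share reads. The 18 ventral count columns were summed over 3 runs per sample. The 35 normalized columns per run were not used, nor were the authors' fold changes, p-values and calls.

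Genes kept by filterByExpr were tested with edgeR 4.0.16 (TMM scaling, quasi-likelihood test, R 4.3.3) and Benjamini-Hochberg adjustment at 0.05. The script was tested on simulated data. SE is the log2 fold change over the root of its F statistic. The joint fit of 12 samples used genes present in both tables. Every pair of samples in a group differed by more than counting noise (chi-square per gene 5.35 to 10.4). List scores used a prior count of 3. Alternatives were DESeq2 1.42.0, voom of limma 3.58.1, other scalings and filters, single runs and each sample left out.

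Members and lists were chosen with earlier results of these data known. Genes were named by rule: the TET genes, the 12 lowest p at 1 CPM or more, the 8 largest non-overlapping changes per direction at 5 CPM or more with an unadjusted p under 0.05, the 4 lowest p per list (8 where a list's share was at least 3 times the background) and the 6 lowest interaction p. The text gives only some of the genes that this rule picked. Genes named from DESeq2 calls, from figures or for levels beside these were chosen after their values were seen. Positions came from GENCODE M21, which held 99.9% of the tested identifiers, and promoters from RefSeq, with the first entry per symbol.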

Additional observations from a re-analysis of the deposited data

Results flagged for a closer look

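For 3 of the 38 gene lists, every ventral cKO sample and every dorsal cKO sample lay on opposite sides of the mean of their own region's controls. How many lists would do so by chance was not tested. The difference between regions was not tested at the level of the lists. The ependymal and motile cilia list had a ventral minus dorsal difference of -0.63 in its log2 score. Its ventral cKO scores were -0.27, -0.11 and -0.77, with cKO 63 (-0.11) within the ventral controls (-0.22 to 0.29). The dorsal cKO scores ran from 0.16 to 0.36, within the dorsal controls (-0.27 to 0.52). The list of actin membrane linkers and endocytosis differed by -0.11, with Ezr and Epn3 the members at an unadjusted ventral p under 0.05. Its ventral groups did not overlap, but its dorsal cKO scores (0.0071 to 0.055) overlapped the dorsal controls (-0.036 to 0.048). The cytosolic ribosomal protein list differed by 0.17. Its ventral cKO scores (0.029, 0.12 and 0.054) overlapped the ventral controls (-0.097 to 0.11). Its dorsal cKO scores (-0.15 to -0.048) lay below the dorsal controls (-0.044 to 0.032). Among its 79 genes, Rps23 was at 147, 203 and 209 CPM in controls against 228, 263 and 228 in cKO, Rps6 at 3.16, 5.59 and 2.98 CPM in controls against 5.77, 6.62 and 8.69 in cKO and Rpl7 at 244, 224 and 254 CPM in controls against 192, 215 and 210.0 in cKO, and 11 members had an unadjusted interaction p under 0.05. Over all tested genes, 7.96% had such an interaction p. Genes of this family share reads with processed copies, so single members are uncertain.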

How the results depend on the processing

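The number of genes called between the ventral groups, 0, became 9 with DESeq2, 302 with no filter on low counts, 3 with run 1 only and 4 with run 2 only, and 76 with control 50 and cKO 63 both left out (chosen after seeing the data). Leaving out each sample in turn gave 0 to 55 calls, the 55 without cKO 63. At an unadjusted p under 0.05 the 1092 genes became 1899 with no filter and 681 with run 1 only, and 745 to 1522 with 1 sample left out. The median of the choroid plexus list moved to -3.01 without control 50 and cKO 63, and ran from -2.89 to -1.15 with 1 sample left out. That of the activity-induced transcription factors ran from 0.15 to 0.32 and that of the effectors from 0.09 to 0.30. Tet3 turned to -0.050 with run 3 only, and with 1 sample left out ran from -0.086 (without control 50) to 0.20, with -0.051 without cKO 40. With run 1 only, Dlk1 turned to 0.016, Grin3a to 0.022 and Mbd5 to -0.13. The interaction had 34 calls with DESeq2 and 0 to 4 with 1 sample left out, 3 without ventral control 41, 4 without dorsal cKO 40 and 1 without dorsal cKO 64. Its 1307 genes at an unadjusted p under 0.05 became 808 to 1787 with 1 sample left out, the lowest without dorsal control 71. Sample numbers 40, 41, 49 and 64 occur in both regions, but deviations of same-numbered samples correlated at only -0.107 to 0.106, and 0 of the 8 samples correlated best with their own number in the other region. With the replicate block as a fixed effect, 714 interaction genes had an unadjusted p under 0.05 and 0 were called, and by duplicateCorrelation 1444 and 0. At these depths a single count is worth 0.0633 to 0.15 CPM, so genes below 1 CPM rest on few reads.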

Other observations

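Some genes with separate groups lay outside the lists above and were chosen after their values were seen. Pomc, the precursor of ACTH and beta-endorphin, was at 4.05, 14.1 and 10.6 CPM in controls 41, 49 and 50 and 2.44, 2.35 and 3 CPM in cKO 40, 63 and 64, a log2 fold change of -1.83 ± 0.42 (unadjusted p = 0.000984, and an adjusted p of 0.0164 by DESeq2). Gh, growth hormone, was also lower, at 5.82, 2.8 and 4.72 CPM in controls against 0.333, 0.276 and 2.55 in cKO. Both are best known from the pituitary, and both varied within a group, Pomc in the controls and Gh in the cKO samples. Slc30a3, the zinc transporter of glutamatergic vesicles, was higher, at 87.4, 109 and 74.8 CPM in controls against 147, 154 and 109.9 in cKO (0.60 ± 0.15). Ndufb6, which belongs to respiratory complex I, was at 35.2, 50.5 and 42 CPM in controls against 56.4, 68.6 and 58.3 in cKO (0.53 ± 0.14), and the translation factor gene Eif4a2 was at 226, 246 and 174 CPM in controls against 357, 265 and 350.2 in cKO (0.59 ± 0.14).

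The genes low in control 50 included transcripts of unrelated function. Sdhd, a subunit of succinate dehydrogenase, was at 28.6, 16.6 and 3.6 CPM in controls against 60.4, 28.3 and 47.8 in cKO and Nsmce3, a subunit of the complex of Smc5 and Smc6, at 51.1, 59.4 and 11.2 CPM in controls against 119, 67.7 and 83.1 in cKO. In both genes cKO 40 was the highest sample and cKO 63 the lowest cKO sample. Of all 95 genes, cKO 40 was the highest cKO sample in 59, cKO 64 in 30 and cKO 63 in 6, and 40 of the 95 (42.1%) were among the genes higher in cKO at an unadjusted p under 0.05. The cause of the low values in control 50 was not tested.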
